A study of Homo sapiens with 8 samples.

Results

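The transcripts of the NRF2 pathway and of glutathione synthesis were examined in MDAH and SKOV3 epithelial ovarian cancer cells with and without silencing of SFPQ, a splicing factor that binds RNA and DNA. The set held 9 genes of the 20503 that could be named on the array: NFE2L2, KEAP1, NQO1, HMOX1, TXNRD1, SRXN1, GCLC, GCLM and AKR1C1. Every array probe whose RefSeq accession belonged to 1 of these genes was taken, which gave 10 probes, 2 of them for AKR1C1.

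NRF2, the product of NFE2L2, is a transcription factor that the adaptor protein KEAP1 normally delivers to a ubiquitin ligase for degradation. Electrophiles and oxidants modify KEAP1, so that NRF2 accumulates, pairs with small MAF proteins and binds antioxidant response elements near genes of glutathione and thioredoxin metabolism, quinone and carbonyl reduction, NADPH supply and iron handling. In ovarian cancer cells the pathway is of interest because glutathione and its export pumps handle platinum compounds.

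RNA of 8 samples was hybridised to 1-colour arrays in 4 groups of 2. The silenced groups of each line held 1 sample with the lentiviral hairpin sh-SFPQ#2 and 1 with sh-SFPQ#3. The spread within a silenced group is therefore also a spread between hairpins. The paper's methods name puromycin selection for stable knock-down cells, without stating it for the array samples in particular. The labels call both controls of a line control-hairpin cells, whereas the methods name 1 parental and 1 sh-ctrl sample, and they are called control 1 and control 2 here. No drug treatment is given for any of the 8 samples. Nothing states that replicates were separate cultures, so p-values measure only the spread between these arrays, and the array row on the slide and the cell line cannot be told apart.

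The knock-down was visible in the transcript. On the log2 scale, with the 75th percentile of each array set to 0, SFPQ read 3.64 and 3.91 in MDAH controls, 2.45 for hairpin sh-SFPQ#2 and 2.10 for sh-SFPQ#3. The SKOV3 controls read 4.84 and 4.66, and the same hairpins brought the values to 3.01 and 2.48. SFPQ fell by 1.50 on the log2 scale in MDAH (limma, adjusted p = 0.0328) and fell by 2.01 in SKOV3 (adjusted p = 0.0299). Leaving out 1 MDAH control raised these to 0.201 or 0.218 in MDAH and 0.107 in SKOV3, with the direction kept. Of 8 epithelial ovarian cancer markers, 7 were well above background on all 4 MDAH arrays and 6 on all 4 SKOV3 arrays. Of markers of other cell types, 2 of 4 leukocyte genes (PTPRC and CD14), 1 of 3 endothelial genes (CDH5) and 1 of 5 fibroblast genes (COL1A1) were well above background on all 8 arrays, and the fibroblast gene DCN on all 4 SKOV3 arrays. PTPRC was so only through its brightest probe (-3.51 to -2.28), while its other probes were well above background on 4, 0 and 0 arrays. CD3E, MS4A1, LUM and PDGFRB were so on no array. COL1A1 was higher in silenced cells on average (log2 change 1.18, limma, adjusted p = 0.0296). Both lines are cultured cell lines that the paper reports as authenticated, and the source of these marker signals was not tested. The 75th percentile signal was between 387 and 496 on 7 arrays and 244 on MDAH sh-SFPQ#3.

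Promoter sequence is shown for 5 windows because the antioxidant response element is the DNA that NRF2 binds, and because AKR1C1 and its close copy AKR1C3 had similar patterns in the values given further on. RefSeq start sites on GRCh38.p14 with 250 bases before and 50 bases after them were searched on both strands for the core TGACNNNGC, and capitals mark each match. Strands are those of the genes, and each sequence is written 5′ to 3′ in the direction of transcription.
KEAP1, chr19:10502722-10503021, minus strand: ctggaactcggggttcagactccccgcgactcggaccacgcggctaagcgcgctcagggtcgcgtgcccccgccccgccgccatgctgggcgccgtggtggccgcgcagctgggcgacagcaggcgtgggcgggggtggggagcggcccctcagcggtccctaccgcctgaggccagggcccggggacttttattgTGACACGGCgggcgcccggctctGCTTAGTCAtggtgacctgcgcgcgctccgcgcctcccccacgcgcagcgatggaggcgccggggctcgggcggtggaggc
TXNRD1, chr12:104215529-104215828, plus strand: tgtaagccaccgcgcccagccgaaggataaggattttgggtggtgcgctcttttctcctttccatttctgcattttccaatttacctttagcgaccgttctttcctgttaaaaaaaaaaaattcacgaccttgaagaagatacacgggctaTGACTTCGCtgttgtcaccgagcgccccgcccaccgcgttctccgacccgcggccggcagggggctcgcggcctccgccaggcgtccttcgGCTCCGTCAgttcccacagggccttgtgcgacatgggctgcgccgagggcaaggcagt
GCLM, chr1:93909381-93909680, minus strand: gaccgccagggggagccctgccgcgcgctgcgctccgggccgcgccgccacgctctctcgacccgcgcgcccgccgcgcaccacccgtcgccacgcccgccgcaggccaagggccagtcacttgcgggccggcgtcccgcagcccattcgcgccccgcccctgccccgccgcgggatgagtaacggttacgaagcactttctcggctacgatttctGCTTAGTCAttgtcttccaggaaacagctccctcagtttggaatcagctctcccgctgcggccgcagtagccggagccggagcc
AKR1C1, chr10:4963165-4963464, plus strand: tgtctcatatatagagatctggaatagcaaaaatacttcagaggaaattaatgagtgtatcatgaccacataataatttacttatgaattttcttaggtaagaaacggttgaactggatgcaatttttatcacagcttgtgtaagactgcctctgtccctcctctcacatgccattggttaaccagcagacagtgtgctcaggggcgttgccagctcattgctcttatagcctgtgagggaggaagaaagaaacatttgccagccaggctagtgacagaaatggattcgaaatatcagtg
AKR1C3, chr10:5048531-5048830, plus strand: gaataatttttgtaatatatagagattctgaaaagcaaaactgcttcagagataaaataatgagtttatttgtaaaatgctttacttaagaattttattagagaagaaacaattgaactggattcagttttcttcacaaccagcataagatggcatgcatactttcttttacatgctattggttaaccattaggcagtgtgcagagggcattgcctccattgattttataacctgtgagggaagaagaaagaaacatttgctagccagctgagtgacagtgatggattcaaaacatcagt
Of the 9 genes, 8 had such a window (HMOX1 did not), and 4 of their 11 windows held the core, in KEAP1, GCLM and TXNRD1. Over all 35116 windows of this length 13.3% held it. In KEAP1 the matches began 54 and 31 bases before the start site, in GCLM the match began 34 bases before it, and in the TXNRD1 window shown the matches began 99 and 8 bases before it. The windows of AKR1C1, AKR1C3, NQO1, SRXN1, GCLC and NFE2L2 held no match, which says only that these letters were not in the 300 bases searched.

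More of these genes passed between the lines than on silencing, as was also so for all genes tested. Between the controls, 4 of the 8 tested genes differed at an adjusted p under 0.05, against 57.5% of all 15552 genes tested: HMOX1 was higher in MDAH, and AKR1C1, KEAP1 and GCLC were lower. On silencing, none of the 8 passed in MDAH, where 2.03% of all genes did, and none in SKOV3, where 0.997% did (limma). At an unadjusted p under 0.05 there were 2 in MDAH (KEAP1 and AKR1C1), against 23.1% of all genes, and 0 in SKOV3, against 19.5%. For the average of both lines none passed with adjustment (5.66% of all genes) or without it (26.4%). For the difference in response between the lines none passed with adjustment (0.0965% of all genes) and 2 passed without it (AKR1C1 and TXNRD1, 14.9% of all genes). In MDAH the silenced arrays did not overlap the controls for KEAP1, TXNRD1 and SRXN1, which were higher, and for AKR1C1 and GCLM, which were lower, so for 5 of 8 genes against 57% of all genes. The GCLM groups were apart by only 0.0012. In SKOV3 the arrays overlapped for all 8, whereas they were apart for 58% of all genes.

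**Figure D1:**
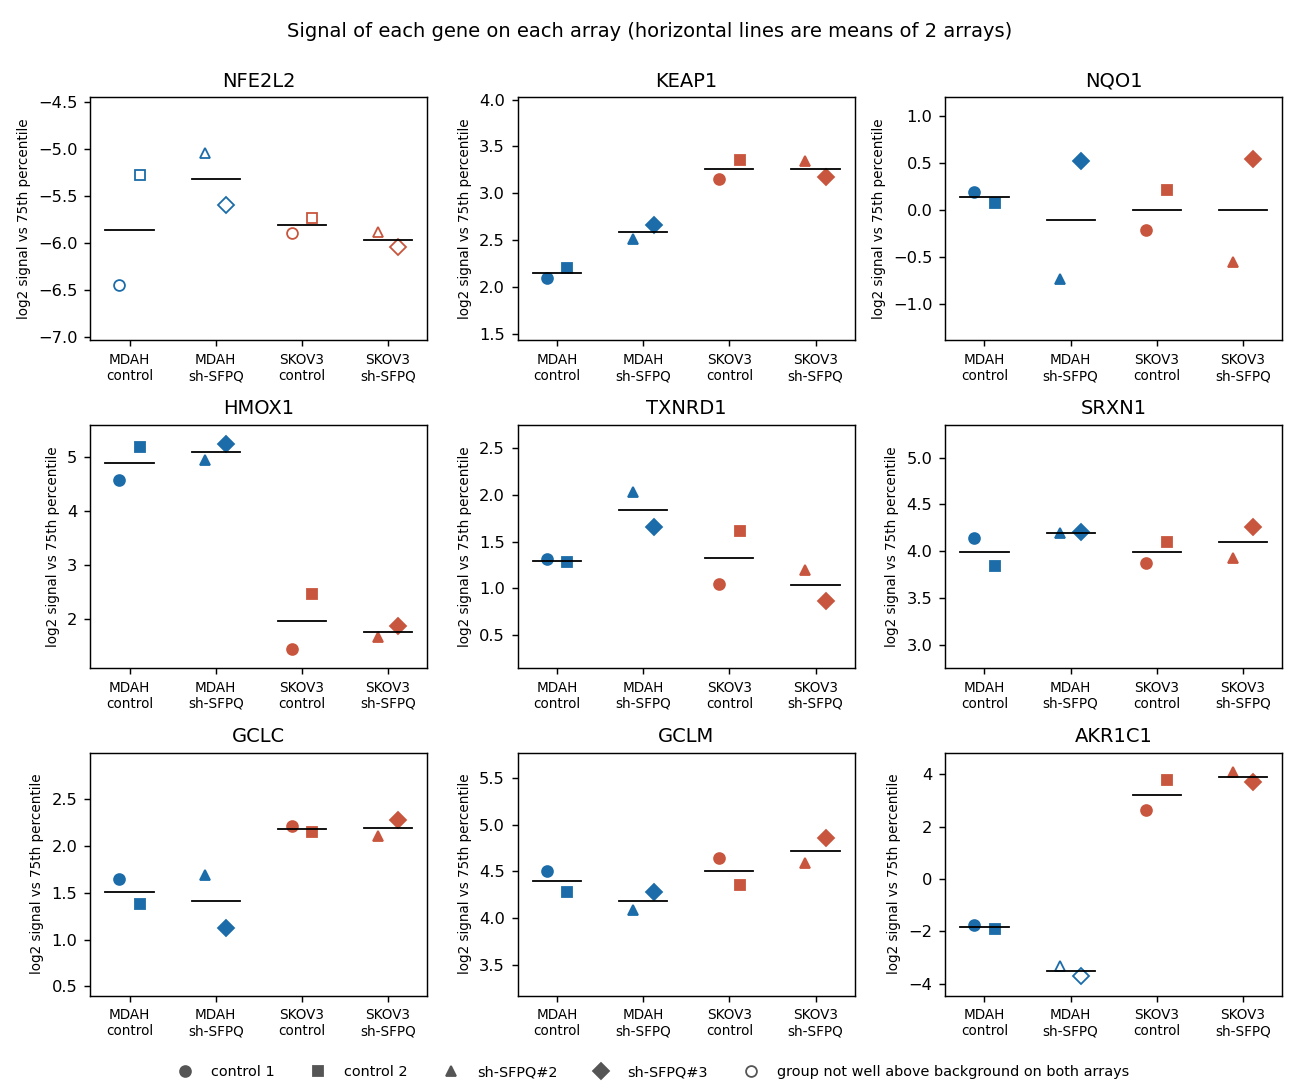
Signal on the log2 scale after subtraction of the 75th percentile (vertical axis) for the 9 genes in the 4 groups, with 1 point per array, symbols for the control number or hairpin and a line at the mean of 2 arrays. HMOX1 was higher in MDAH and AKR1C1 higher in SKOV3 with no overlap between lines, and the NFE2L2 probe was not well above background on any array.

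NFE2L2, which encodes NRF2 itself, had only 1 probe, which was not well above background on any of the 8 arrays. The probe read -6.45 and -5.28 in MDAH controls, -5.04 and -5.60 in silenced MDAH, -5.89 and -5.73 in SKOV3 controls and -5.88 and -6.05 in silenced SKOV3. Whether the transcript was absent or the probe did not read it was not tested. These are readings of a probe at background, so no change was tested and no order among the groups was read. The 9 genes therefore gave 8 tests.

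KEAP1, the repressor of NRF2, was lower in MDAH than in SKOV3. Its probe, printed as 10 spots per array, read 2.10 and 2.20 in MDAH controls and 2.51 and 2.66 in silenced MDAH. In SKOV3 it read 3.15 and 3.36 in controls and 3.34 and 3.18 in silenced cells. All 4 MDAH arrays lay below all 4 SKOV3 arrays, and within MDAH both silenced arrays lay above both controls. Control MDAH cells had 2.15-fold less KEAP1 signal than control SKOV3 cells (log2 difference -1.11, SE 0.16, adjusted p = 0.00109). In MDAH the log2 change on silencing was 0.44 (95% interval 0.06 to 0.81), with an unadjusted p of 0.0286 and an adjusted p of 0.172. The median of all genes shifted by 0.10 in the same comparison, and by 0.21 when arrays were centred on their median. In SKOV3 the change was 0.0047 (95% interval -0.37 to 0.38), and the difference in response between the lines, 0.43, had an adjusted p of 0.392. The group means ran from control MDAH (2.15) through silenced MDAH (2.58) to control SKOV3 (3.25) and silenced SKOV3 (3.26). The last pair did not differ beyond its spread.

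GCLC and GCLM encode the catalytic and the modifier subunit of glutamate-cysteine ligase, which carries out the first and rate-limiting step of glutathione synthesis. GCLC read 1.64 and 1.38 in MDAH controls, 1.69 and 1.13 in silenced MDAH, 2.22 and 2.15 in SKOV3 controls and 2.10 and 2.27 in silenced SKOV3. All MDAH arrays lay below all SKOV3 arrays, and silenced and control arrays overlapped within each line. The difference between the controls was -0.67 (SE 0.22, adjusted p = 0.0347), a 1.60-fold lower signal in MDAH. This call was lost in 6 of the alternative analyses, among them quantile normalization (adjusted p = 0.0759) and leaving out any 1 of the 4 control arrays (adjusted p from 0.0652 to 0.167).

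Silencing changed GCLC by -0.10 in MDAH (95% interval -0.63 to 0.42) and by 0.0031 in SKOV3 (95% interval -0.52 to 0.53). The modifier subunit showed no difference between the lines past the threshold. GCLM read 4.51 and 4.28 in MDAH controls, 4.09 and 4.28 in silenced MDAH, 4.64 and 4.35 in SKOV3 controls and 4.59 and 4.86 in silenced SKOV3. Its log2 change was -0.21 in MDAH (95% interval -0.66 to 0.24) and 0.22 in SKOV3 (95% interval -0.23 to 0.67), and the difference between the controls was -0.11 (adjusted p = 0.653). By group mean, GCLC ran from silenced MDAH (1.41) and control MDAH (1.51) to control SKOV3 (2.18) and silenced SKOV3 (2.19). For GCLM the order was silenced MDAH (4.18), control MDAH (4.39), control SKOV3 (4.50) and silenced SKOV3 (4.72), with neighbours within the spread of their arrays.

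TXNRD1 and SRXN1 serve the thioredoxin system, TXNRD1 by reducing thioredoxin with NADPH and SRXN1 by restoring overoxidised peroxiredoxins. TXNRD1 read 1.31 and 1.28 in MDAH controls and 2.03 and 1.65 in silenced MDAH. In SKOV3 it read 1.04 and 1.62 in controls and 1.20 and 0.87 in silenced cells. The silenced MDAH arrays were the 2 highest of all 8, while the SKOV3 groups overlapped. The log2 change was 0.54 in MDAH (95% interval -0.04 to 1.13, adjusted p = 0.240) and -0.29 in SKOV3 (95% interval -0.88 to 0.29, adjusted p = 0.532). The difference between these changes was 0.84 (SE 0.35, unadjusted p = 0.0483, adjusted p = 0.332). The control lines stood at 1.30 in MDAH and 1.33 in SKOV3, a log2 difference of -0.03 with a 95% interval from -0.62 to 0.55. Silenced MDAH was highest (1.84) and silenced SKOV3 lowest (1.03).

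SRXN1 read 4.14 and 3.85 in MDAH controls, 4.19 and 4.21 in silenced MDAH, 3.88 and 4.10 in SKOV3 controls and 3.93 and 4.26 in silenced SKOV3. Its 8 values lay closer together than those of any other tested gene of the set. The log2 change was 0.21 in MDAH (95% interval -0.24 to 0.65) and 0.11 in SKOV3 (95% interval -0.34 to 0.55), and the controls differed by 0.0028 (95% interval -0.44 to 0.45). The group means were 3.99 for both controls, 4.10 in silenced SKOV3 and 4.20 in silenced MDAH, all within the spread of their arrays or close to it.

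HMOX1 encodes haem oxygenase-1, which opens the haem ring and releases iron, carbon monoxide and biliverdin, and is repressed by BACH1 as well as induced by NRF2. It read 4.57 and 5.17 in MDAH controls and 4.94 and 5.23 in silenced MDAH, against 1.45 and 2.46 in SKOV3 controls and 1.66 and 1.86 in silenced SKOV3. Every MDAH array stood more than 2 log2 units above every SKOV3 array, and within each line the silenced arrays overlapped the controls. Control MDAH cells had 7.57-fold more HMOX1 signal (log2 difference 2.92, SE 0.36, adjusted p = 0.000600). The change on silencing was 0.21 in MDAH (95% interval -0.65 to 1.07) and -0.19 in SKOV3 (95% interval -1.05 to 0.67). The order of the means was silenced MDAH (5.08), control MDAH (4.87), control SKOV3 (1.95) and silenced SKOV3 (1.76), and within a line they did not differ beyond their spread. Control 2 was above control 1 in both lines, by 0.60 in MDAH and 1.01 in SKOV3, where the SD of that difference over all genes was 0.31 and 0.43. Over both lines it was 0.81, in a fit made after these values had been seen (unadjusted p = 0.00505, as for 3.53% of all genes, adjusted p = 0.982). The probe was printed as 10 spots, whose SD on any array was at most 0.146.

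NQO1, a quinone reductase and a commonly used readout of NRF2 activity, lay on opposite sides of the controls for the 2 hairpins. It read 0.20 and 0.07 in MDAH controls, -0.73 for sh-SFPQ#2 and 0.53 for sh-SFPQ#3. The SKOV3 controls read -0.21 and 0.21, and the SKOV3 hairpin samples read -0.55 for sh-SFPQ#2 and 0.55 for sh-SFPQ#3. In both lines sh-SFPQ#2 gave the lowest value and sh-SFPQ#3 the highest, with the controls between them. The mean change was therefore -0.24 in MDAH (95% interval -1.41 to 0.93) and -0.00046 in SKOV3 (95% interval -1.17 to 1.17). The control difference between the lines was 0.14 (95% interval -1.03 to 1.31), so none of the 4 group means was apart from another beyond its spread. The difference of sh-SFPQ#3 minus sh-SFPQ#2 was 1.26 in MDAH and 1.10 in SKOV3. In a fit with the hairpin as a term, made after these values had been seen, it was 1.18 (SE 0.19, unadjusted p = 0.00169, adjusted p = 0.0791). That comparison called 0.72% of all genes with adjustment and 17.8% without it, and it called NQO1 in 1 of 4 other scalings (normexp and quantile, adjusted p = 0.0208).

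**Figure D2:**
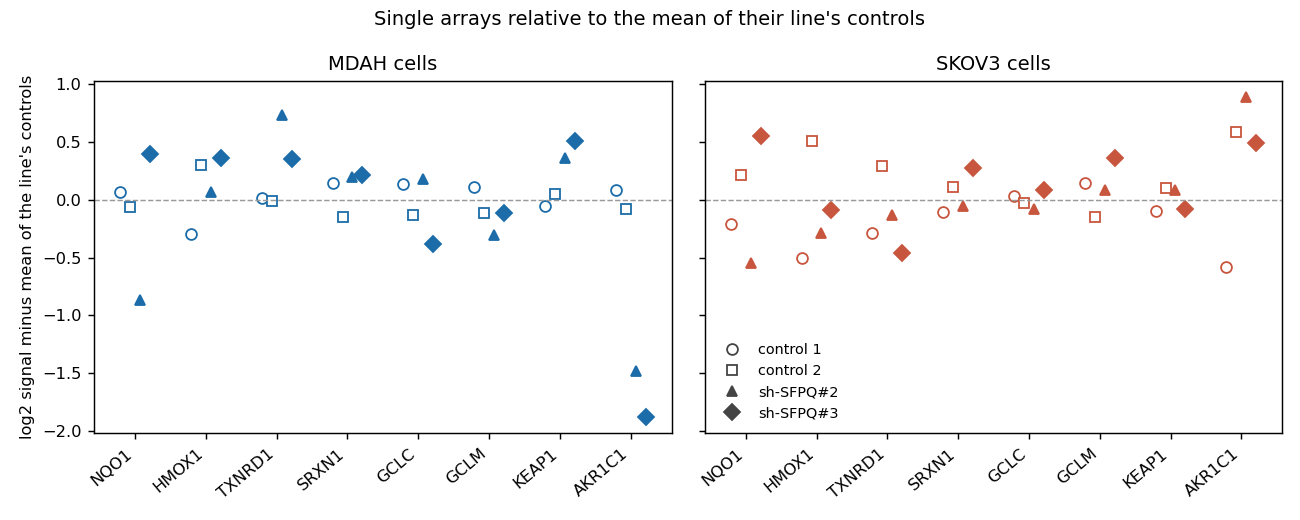
Log2 signal of each array minus the mean of the 2 controls of its line (vertical axis) for the 8 tested genes in MDAH (left) and SKOV3 (right), with open symbols for controls and filled symbols for hairpins. For NQO1, sh-SFPQ#2 was lowest and sh-SFPQ#3 highest in both lines, and for AKR1C1 both hairpins lay below the MDAH controls while the SKOV3 arrays overlapped.

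AKR1C1, an aldo-keto reductase that reduces carbonyls and steroids, had the largest difference between the lines among the probes used for the 8 tests, though its other probe differed less than HMOX1 did. The probe with the higher mean over all arrays read 2.62 and 3.79 in SKOV3 controls, 4.09 and 3.69 in silenced SKOV3, -1.75 and -1.92 in MDAH controls and -3.31 and -3.71 in silenced MDAH. The order of the group means was silenced SKOV3 (3.89), control SKOV3 (3.21), control MDAH (-1.83) and silenced MDAH (-3.51). Only the SKOV3 groups overlapped. Control MDAH cells had 32.9-fold less signal than control SKOV3 cells (log2 difference -5.04, SE 0.38, adjusted p = 7.16e-05). The other probe, well above background on all 8 arrays, read -0.97 and -1.40 in MDAH controls and 0.47 and 1.69 in SKOV3 controls, a log2 difference of -2.26 (adjusted p = 0.00406), so both probes had the same direction and differed in size. The difference was -3.65 for the mean of both probes, -4.36 with the normexp background correction and between -5.63 and -4.46 with single arrays left out.

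In MDAH the AKR1C1 signal was lower with both hairpins than in both controls, without passing the adjusted threshold (tested probe, log2 change -1.68, 95% interval -2.59 to -0.77, unadjusted p = 0.00351, adjusted p = 0.0823). The other probe gave -2.69 and -3.04 with the hairpins and the same log2 change of -1.68 (adjusted p = 0.0936). In SKOV3 the change was 0.69 (95% interval -0.22 to 1.60, adjusted p = 0.366), and the difference between the lines was -2.36 (SE 0.54, unadjusted p = 0.00357, adjusted p = 0.191). The tested probe was not well above background on MDAH sh-SFPQ#3, the array with the lowest 75th percentile signal. Without that array the change was -1.48 (adjusted p = 0.268), and with the normexp background correction it was -0.73 (adjusted p = 0.235). Leaving out either SKOV3 control, which differed by 1.17 from each other for AKR1C1, left the change in MDAH at -1.68 and brought the adjusted p to 0.0406.

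AKR1C3, a close copy of AKR1C1 with prostaglandin and steroid substrates, was read beside it because probes of such genes may share targets, which was not tested here. It read -1.35 and -1.79 in MDAH controls and -2.47 and -2.73 in silenced MDAH, against 4.85 and 5.61 in SKOV3 controls and 5.59 and 5.71 in silenced SKOV3. The lines were again far apart and the MDAH groups did not overlap, as for 57% of all genes. The control difference was -6.80 (SE 0.28, adjusted p = 6.54e-06), and the change on silencing was -1.03 in MDAH (adjusted p = 0.111) and 0.41 in SKOV3 (adjusted p = 0.453).

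**Figure D3:**
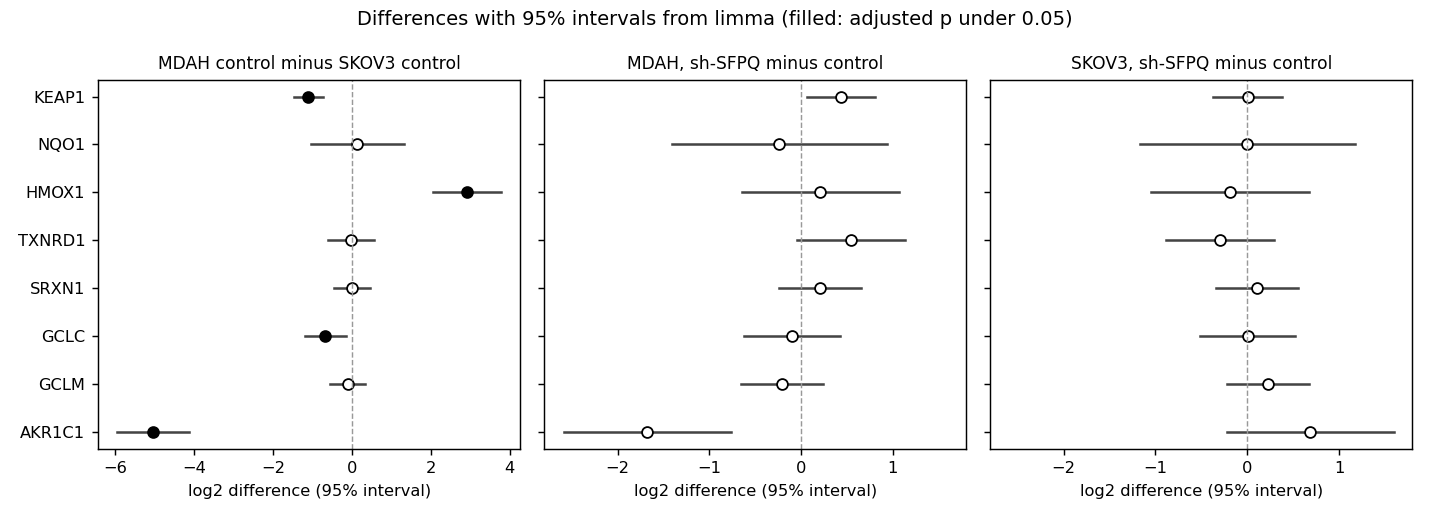
Log2 differences (horizontal axis) with 95% intervals from limma for the 8 tested genes between the controls of the lines (left) and on silencing in MDAH (middle) and SKOV3 (right), with filled points for an adjusted p under 0.05. KEAP1, HMOX1, GCLC and AKR1C1 are filled on the left, and no point is filled in the silencing panels, whose horizontal scale is narrower.

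The average change over both lines was between -0.50 (AKR1C1) and 0.22 (KEAP1) for the 8 genes, with adjusted p-values from 0.257 upwards. The median change of the 8 genes was 0.05 in MDAH, beside 0.10 for all genes, and 0.0039 in SKOV3, beside -0.04. Between the controls the median was -0.07, beside -0.05 for all genes.

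Over the 8 arrays, with each line centred on its own mean, the pattern of KEAP1 was most like that of PPP1R18 (Pearson r = 0.992) among 12376 genes well above background on all arrays. The same measure named SRI for NQO1 (r = 0.979), AMDHD2 for HMOX1 (r = 0.963), BCAS2 for TXNRD1 (r = 0.973), ABRAXAS1 for SRXN1 (r = 0.980), CLIP1 for GCLC (r = 0.994) and ECHDC2 for GCLM (r = 0.962). With 8 arrays and this many candidates such values describe the arrays, which the genes share.

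The rest of the pathway was read from a list of 82 further genes, of which 77 were tested. In control cells 46 of the 77 differed between the lines, 21 higher and 25 lower in MDAH. Of all genes 57.5% differed, 26.8% higher and 30.7% lower in MDAH, and the counts by role that follow are a description beside these shares. Of 21 glutathione genes 5 were higher and 7 lower in MDAH. GSTA4, a glutathione transferase that acts on lipid peroxidation products, was higher in MDAH by 4.98 on the log2 scale (adjusted p = 1.57e-06), and CHAC1, which cleaves glutathione, by 3.80 (adjusted p = 0.000362). With normexp the GSTA4 difference was 3.75, and with the mean of its probes that of CHAC1 was 4.47. MGST1, a membrane-bound glutathione transferase, was not well above background on any MDAH array and was tested only through SKOV3. It was at least 266-fold higher in SKOV3 controls, a bound taken from the lowest detectable signal on the scale of the main analysis. Its p-value is against MDAH readings at background (limma, adjusted p = 1.30e-06). With normexp and its offset of 50 the log2 difference was -6.00, which is below that bound, so the bound holds on the main scale alone.

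Among 15 detoxification and efflux genes, 8 were lower and 1 was higher in MDAH controls. The higher one was ABCC2, an export pump for glutathione conjugates (log2 difference 3.22, adjusted p = 0.00361; 2.15 with normexp). UGT1A6 is a glucuronosyltransferase whose transcript shares exons with other UGT1A forms. Its brighter probe was not well above background on any MDAH array and was tested only through SKOV3. There it was at least 200-fold higher by the same kind of bound (limma, adjusted p = 8.33e-05, against MDAH readings at background). Under normexp the log2 difference was -4.79, which is below that bound, so this bound also holds on the main scale alone. The dimmer probe read 1.20 and -0.24 in SKOV3 controls, against 3.52 and 2.05 for the brighter one. It was not well above background in MDAH either. All 4 tested genes in the group of other reported NRF2 targets differed. The taurine carrier SLC6A6 was 3.36 higher in MDAH (adjusted p = 1.15e-05), and 2.19 higher with the mean of its probes. SPP1, the secreted protein osteopontin, was higher in SKOV3 controls (1.44 and 1.26, adjusted p = 2.08e-06). In MDAH controls it read -4.78 and -4.88. It was not well above background on any MDAH array, so SPP1 too was tested only through SKOV3. The log2 difference was -6.19 against these background readings and -3.63 under normexp, so no least fold is given. Of 7 NADPH supply genes 4 were higher and 0 were lower in MDAH at an adjusted p under 0.05 (limma), and at an unadjusted p under 0.05 these were 4 and 1. Of 9 iron and haem genes 4 were higher and 3 lower, of 11 regulators 1 was higher and 4 lower, and of 10 thioredoxin and peroxiredoxin genes 3 were higher and 2 lower.

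On silencing, 1 of the 77 genes passed in MDAH and 3 passed in SKOV3, beside 2.03% and 0.997% of all genes. The 1 in MDAH was GSTM4, a glutathione transferase, which read -3.89 and -4.23 in controls and was not well above background in silenced cells (adjusted p = 0.0126), so no fold is given. In SKOV3, CHAC1 read -0.61 and 0.15 in controls and 2.09 and 2.89 with the hairpins, a log2 rise of 2.73 (SE 0.42, adjusted p = 0.0448). GSTA4 rose by 1.09 there (SE 0.14, adjusted p = 0.0299). Its values were -3.05 and -3.19 in controls and -2.08 and -1.99 in silenced SKOV3.

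BACH1, the repressor of HMOX1, was the regulator that passed in SKOV3, and its probes disagreed. The brighter probe read 2.16 and 2.12 in controls and 2.99 and 3.20 in silenced SKOV3 (log2 change 0.96, SE 0.14, adjusted p = 0.0448). The dimmer probe, which matches a noncoding transcript of the gene, read -2.55 and -2.21 in controls and -3.35 and -3.38 in silenced SKOV3. With the mean of both probes the change was -0.0148 and the call was lost. Without either MDAH control all 4 of these calls were lost as well (adjusted p from 0.0759 to 0.159 for GSTM4 and from 0.107 to 0.130 for GSTA4, BACH1 and CHAC1).

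For the average of both lines 6 of the 77 passed, beside 5.66% of all genes, and none passed for the difference between the lines (limma), where 16 had an unadjusted p under 0.05, beside 14.9% of all genes. The 6 were BACH1, GSTA4 and GSTM4 and the further genes SQSTM1, SESN2 and AKR1B10. The averages of GSTA4 and GSTM4 joined unlike changes, since GSTA4 had -0.09 in MDAH and 1.09 in SKOV3. GSTM4 had 0.32 in SKOV3 and -1.96 in MDAH, the latter against readings at background in silenced cells. Over the alternatives that kept all arrays, the MDAH value of GSTM4 ran from -2.08 to -0.26, so its size is not read. SQSTM1, the autophagy receptor p62 that binds KEAP1, read 4.45 and 4.54 in MDAH controls and 5.08 and 5.58 with the hairpins, and 4.50 and 4.72 in SKOV3 controls and 5.21 and 5.45 with the hairpins. It was higher in silenced cells of both lines without overlap. In either direction, the arrays were apart for 57% of all genes in MDAH and 58% in SKOV3. The averaged change of SQSTM1 was 0.78 on the log2 scale (SE 0.15, limma, adjusted p = 0.0367). SESN2, a stress-induced sestrin, rose by 0.98 (SE 0.20, adjusted p = 0.0423). AKR1B10, a reductase of the same superfamily as AKR1C1, was well above background in silenced SKOV3 alone, at least 2.08-fold over SKOV3 controls, and was tested only through that group. Its averaged change (adjusted p = 0.0461) includes MDAH readings at background and is not read as a change of both lines. Without either MDAH control none of SQSTM1, SESN2, AKR1B10, BACH1 and GSTM4 passed for the average (adjusted p from 0.0829 to 0.178). The average of GSTA4, outside the 4 highest that were named, was not followed with arrays left out. The median change of the 77 genes was -0.01 in MDAH and 0.11 in SKOV3, beside 0.10 and -0.04 for all genes.

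**Figure D4:**
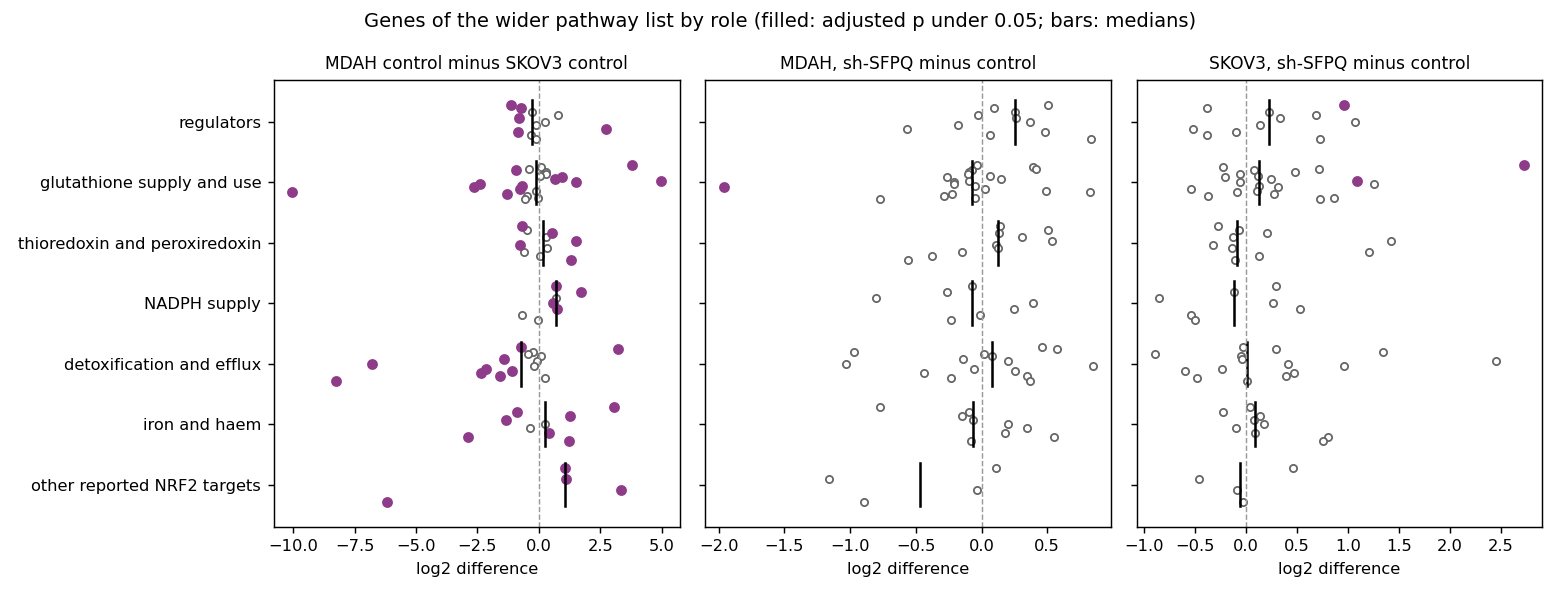
Log2 differences (horizontal axis) of the 77 tested genes of the wider list by role (vertical axis), between the controls of the lines (left) and on silencing in MDAH (middle) and SKOV3 (right), with filled points for an adjusted p under 0.05 and bars at the group medians. The left panel holds 46 filled points, the middle panel 1 (GSTM4) and the right panel 3 (BACH1, CHAC1 and GSTA4), and the horizontal scales differ between panels.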

How the data were processed

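RNA of the 8 samples was labelled with Cy3 and hybridised to Agilent whole-genome arrays on 1 slide with 1 scan. Per the file headers, the authors deposited for each spot a background-subtracted, detrended intensity on a linear scale, without scaling between arrays; the headers name Agilent Feature Extraction 11.5.1.1 and the submitters' processing notes 10.7.3.1. The authors also deposited a log2 table, which matched quantile-normalized log2 signals minus each probe's median (r = 1.0 per array over 50583 probes; column medians from -0.03 to 0.01) and served as an alternative. Other columns used here are the deposited flags, and the median pixel intensities deposited for spot and background, used for normexp with an offset of 50.

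Control spots and 209 to 310 outlier spots per array were left out, no spot was saturated, log2 intensities were averaged per probe and each array's 75th percentile was subtracted. Values of different probes are not compared, and precision is limited by how many arrays there are. Of 50599 probes, 28174 were named through a RefSeq table by accession. A gene was tested on its brightest probe if 1 or more groups had it well above background on each of their arrays. limma 3.58.1 in R 4.3.3 was fitted to all 4 groups (4 residual degrees of freedom, 2.69 from the prior), with Benjamini-Hochberg adjustment over 15552 genes and a threshold of 0.05, and was tested on simulated data. Tables and figures were made with Python 3.11.15, pandas 2.3.3 and matplotlib 3.10.9. Genes, lists and tests were chosen with earlier results of these data known. From the wider list, up to 4 called genes with the highest and 4 with the lowest differences per comparison were named. The listed genes GGT1, PRDX2, AKR1C2, TRIM16 and TRIM16L had no named probe. Alternatives were 2 other scalings, the deposited table, normexp, both filters on dim probes, 2 rules for probes, each line alone, each array left out and a replicate block; slide and scan could not be blocked.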

Additional observations from a re-analysis of the deposited data

How the results depend on the processing

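None of the 8 genes was called on silencing in SKOV3, on average or for the difference between lines under any alternative run. In MDAH the count was 0 to 1 with single arrays left out: it was 1 (AKR1C1) without SKOV3 control 1 and 1 without SKOV3 control 2, and 0 under the other alternatives. Between the controls it was 3 to 4 under the alternatives that kept all arrays. GCLC was lost with quantile normalization and in the deposited table, and also with single control arrays left out. The cause of its loss was not tested. With probes well above background on all arrays GCLC stayed called (limma, adjusted p = 0.0236). There AKR1C1 was left out by the filter, since its tested probe was well above background on 7 of the 8 arrays.

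The number of genes called over the whole array moved far more. With single arrays left out it ranged from 9 to 1091 in MDAH, from 13 to 595 in SKOV3, from 32 to 1686 on average, from 0 to 182 for the difference and from 6759 to 9320 between the controls. The main counts were 316, 155, 880, 15 and 8941. With normexp the silencing counts were 622 in MDAH, 322 in SKOV3, 1434 on average and 0 for the difference. With every probe fitted on its own they were 475, 242, 1444 and 25, over 20936 probes. Without a filter on dim probes 39 were called in SKOV3 and 370 on average, and with probes well above background on all arrays 114 in MDAH and 0 for the difference. Each line fitted alone gave 143 in MDAH and 0 in SKOV3. The count for the difference was 23 with median centring, 29 with quantile normalization and 28 in the deposited table.

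With the replicate block (control number and hairpin) the calls were 862 in MDAH, 688 in SKOV3, 1770 on average and 0 for the difference, and no call of the 8 genes changed. The number links samples with r = 0.078 for the controls and r = 0.363 for the hairpins, and only 2 numbers are shared in each arm, so the numbers were not taken to pair the samples, although in the silenced arm the number is the hairpin itself. Of the 77 genes of the wider list the block called 2 in MDAH, 5 in SKOV3 and 9 on average, among them 1 of the 1, 2 of the 3 and 5 of the 6 called without it, CHAC1 in SKOV3 and SESN2 on average being lost. It called 0 for the difference and 52 between the controls.

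Among the named genes of the wider list, BACH1 reversed with the mean of its probes (-0.0148 in SKOV3, -0.1395 on average). The adjusted p ranged over all alternatives from 0.0211 to 0.973 for BACH1 and from 0.0254 to 0.167 for CHAC1 in SKOV3. It ranged from 0.0284 to 0.158 for GSTA4 in SKOV3 and from 0.00538 to 0.240 for GSTM4 in MDAH. For the averages it ranged from 0.0166 to 0.155 for SQSTM1, from 0.0249 to 0.141 for SESN2 and from 0.0205 to 0.178 for AKR1B10. For SFPQ it ranged from 0.0128 to 0.218 in MDAH and from 0.0128 to 0.158 in SKOV3, with the same direction throughout.

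The following reversals are of log2 differences that were not called. With median centring GCLC was 0.0095 in MDAH, -0.0314 in SKOV3 and 0.0409 for the difference, KEAP1 was -0.0297 in SKOV3, and between the controls NQO1 was -0.0135 and SRXN1 -0.1496. With quantile normalization GCLM was -0.0092 and HMOX1 -0.0562 on average, NQO1 was 0.0067 in SKOV3, SRXN1 was -0.1212 for the difference, and between the controls GCLM was 0.1006 and TXNRD1 0.0692. In the deposited table the same 6 values were -0.0070, -0.0552, 0.0079, -0.1244, 0.1043 and 0.0700. With normexp GCLM was -0.0093, HMOX1 -0.0383 and AKR1C1 0.0101 on average, SRXN1 was -0.0942 for the difference, and between the controls GCLM was 0.0573 and TXNRD1 0.0345.

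With single arrays left out, GCLC ranged from -0.3827 to 0.1778 in MDAH, -0.0810 to 0.0871 in SKOV3, -0.1898 to 0.0904 on average and -0.3858 to 0.1748 for the difference. NQO1 ranged from -0.8704 to 0.3931, -0.5511 to 0.5502, -0.4354 to 0.1963 and -0.8700 to 0.3935 in the same order, and from -0.0739 to 0.3517 between the controls. HMOX1 ranged from -0.0903 to 0.5092, -0.6965 to 0.3157, -0.2435 to 0.2626 and -0.1062 to 0.9060. GCLM ranged from -0.0670 to 0.0787 on average and -0.2521 to 0.0392 between the controls, and KEAP1 from -0.0973 to 0.1068 in SKOV3. SRXN1 ranged from -0.0554 to 0.2701 in SKOV3, -0.0620 to 0.2635 for the difference and -0.1432 to 0.1488 between the controls. TXNRD1 ranged from -0.0200 to 0.2664 on average and -0.3181 to 0.2547 between the controls.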
